A study of Homo sapiens with 12 samples.

Results

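The cells described here are H9 human embryonic stem cells, an established line, taken through neural differentiation with FT671, an inhibitor of the deubiquitinating enzyme USP7, and compared with the same differentiation in its solvent DMSO, the vehicle. The comparison was given by the sample titles: 3 libraries of each group, 6 of the 12 libraries in the study, and all 13310 genes of the deposited table. The other 6 libraries are undifferentiated H9 cells and untreated neural cells. All 4 groups are labelled wild type. Neural differentiation began with inhibitors of both SMAD branches, A83-10 and Dorsomorphine as the labels spell them, and EGF and bFGF were the factors of the neural medium that followed. The dose, start and length of FT671 treatment are not stated in the labels, and neither is the origin of the replicates. If they are not separate cultures, the p-values reflect technical spread. For the vehicle samples 1 label, the treatment field, says undifferentiated, and their titles, taken as correct, say neural. All libraries come from this line, so other donors are not represented.

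USP7 removes ubiquitin from other proteins and thereby changes how long they last. Its known clients include the ubiquitin ligase MDM2, several factors of DNA replication, and the Polycomb complex PRC1.1. During neural induction, blocking BMP and activin signals turns pluripotent cells into neuroepithelium marked by PAX6, SOX1 and N-cadherin. Under BMP, early ectoderm instead forms surface ectoderm, and pluripotent cells in culture can take on markers of amnion or trophoblast. These epithelia are marked by TFAP2A, GATA3 and keratins.

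Values are normalized read counts, the deposited value minus 1, given per library or as mean ± SD of 3 libraries. Fold changes are on the log2(normalized count + 1) scale with their standard error, and adjusted p-values come from limma over all 13310 genes. A gene is said to rise or fall where its adjusted p was under 0.05. Vehicle libraries held 17149947 to 17198800 reads in these genes and FT671 libraries 17107952 to 17271155. Replicates correlated across genes with Pearson r of 0.993 to 0.995 in these 2 groups, and untreated neural replicate 3 stood slightly apart from its group, at 0.988 and 0.989. Vehicle and untreated neural cells differed in 53 genes (0.398% of those tested), of which 52 (0.391%) were lower with vehicle, among them KRT7, RAB25, ITGB4 and SCEL.

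USP7 itself, measured as transcript and not as enzyme activity, read 4054, 3820.1 and 3946 in the vehicle libraries and 2654, 2611 and 2626 in the FT671 libraries. The 3 FT671 libraries all lay below the vehicle libraries (log2 fold change −0.58 ± 0.06, adjusted p = 9.51e-08).

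FT671 moved a large share of the transcriptome. Of 13310 genes, 5347 rose (40.2%) and 5280 fell (39.7%), and the groups did not overlap for 84.7% of genes. With a 2-fold minimum, 2177 genes rose (16.4%) and 1916 fell (14.4%). At least 16-fold changes were found for 283 rises and 201 falls, and at least 100-fold changes for 24 and 28. The median over all genes was 0.01 on the log2 scale, which the authors' size factors hold near 0. Scaling by library totals in their place moved that median by −0.12 and gave 4595 rises and 5899 falls. Since 79.8% of genes passed the test, counts of genes changed at least 2-fold and the size of change separate gene groups better than the calls do.

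**Figure D1:**
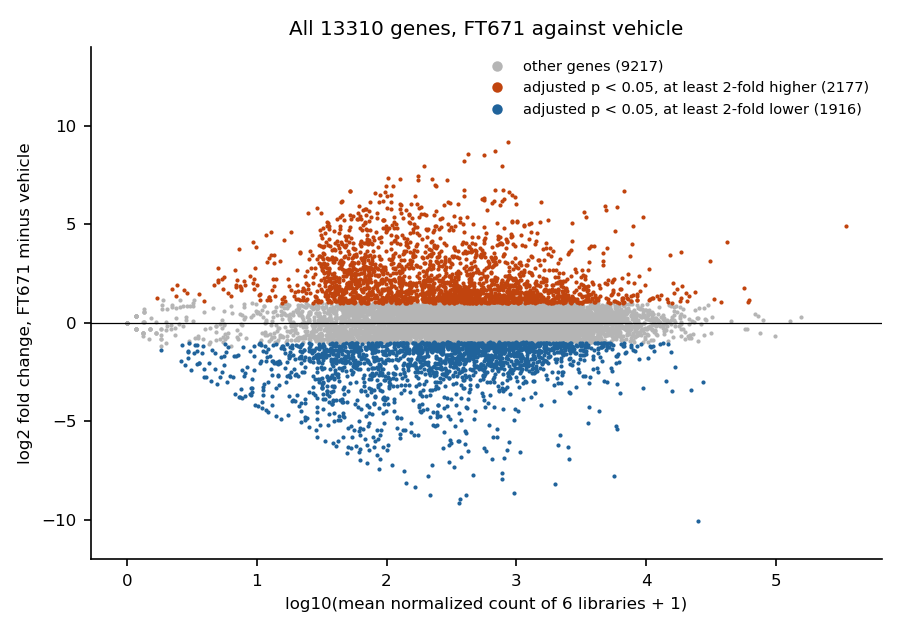
Log2 fold change of each of 13310 genes, FT671 minus vehicle, against log10 of the mean normalized count of the 6 libraries plus 1. Orange and blue points are genes with an adjusted p under 0.05 and a change of at least 2-fold, 2177 higher and 1916 lower, and grey points are the other genes.

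Neural transcription factors had the lowest median change of the 47 gene lists. Of 39 listed factors, 25 were in the table; 20 fell and 2 rose, 19 and 1 of them at least 2-fold, against 14.4% and 16.4% of all genes, and the median log2 fold change was −3.86 against 0.01 for all genes. PAX6, the factor that sets neuroectoderm identity in human cells, read 3754, 4250.1 and 3952 in the vehicle libraries and 18.0, 11.6 and 9.56 in the FT671 libraries. Every FT671 library held fewer PAX6 counts than the undifferentiated mean of 176 (log2 fold change −8.19 ± 0.16, adjusted p = 1.03e-16). SOX2, shared by pluripotent and neural stem cells, read 1729, 1464 and 1561 in the vehicle libraries and 14.8, 15.8 and 8.49 in the FT671 libraries, and undifferentiated cells averaged 9263 ± 1307. The SOX2 level with FT671 was thus below both the neural and the undifferentiated level, with no overlap (log2 fold change −6.86 ± 0.16, adjusted p = 8.18e-16). The related factor SOX3 went from 812 ± 96.9 counts to 3 reads in all with FT671, 768-fold lower (95% counting interval 263 to 3727). NR2F1, an orphan nuclear receptor of the forebrain, read 672, 773 and 701 with vehicle against 0, 1.05 and 0 with FT671. POU3F2 (BRN2), a POU factor that promotes neuron formation, had 432 ± 29.7 counts with vehicle and no read with FT671, so it was at least 409-fold lower against a floor of 3 reads over the group. Intervals and floors cover counting error only. The 2 factors that rose were LHX5, from 18.1 ± 4.42 to 203 ± 11.3 (3.43 ± 0.18), and ZIC5, from 48.3 ± 5.63 to 78.6 ± 11.1, and both stayed under their undifferentiated means of 1597 and 1359.6. PAX7 and NR2F2 were among those that did not pass the test. In untreated neural against undifferentiated cells, 9 of the 25 factors rose and 14 fell, with a median of −0.96. The summed level of the list was 32102 to 37375 in undifferentiated cells, 19787 to 20403 with vehicle and 7151 to 7422 with FT671. In bulk RNA, fewer cells of a type and less RNA per cell cannot be told apart.

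Genes of neural stem cells and radial glia followed. Of 24 measured, 18 fell and 3 rose, 14 and 3 at least 2-fold, with a median of −1.25. In untreated neural against undifferentiated cells, 6 of the 24 rose and 15 fell, with a median of −0.72. Their summed level was nevertheless higher, 159461 to 168045 in untreated neural against 121859 to 124259 in undifferentiated cells. SFRP2, a secreted WNT modulator of neural progenitors, had the largest fall over all named genes. It read 47406, 53376 and 51246 in the vehicle libraries and 31.8, 42.1 and 73.3 in the FT671 libraries, and FT671 left a level below even the undifferentiated 4622 ± 332 (log2 fold change −10.07 ± 0.18, adjusted p = 6.38e-17). CDH2, the N-cadherin that joins neuroepithelial cells, read 11148, 11408 and 11379 in the vehicle libraries and 44.5, 69.4 and 43.5 in the FT671 libraries, and the FT671 mean was 0.464% of the vehicle mean (log2 fold change −7.76 ± 0.13, adjusted p = 2.03e-17). CRB2, an apical polarity protein of the neural tube, fell from 1668 ± 179 to 18.0 ± 0.0850. The 3 rises were PROM1, an apical membrane protein of stem cells (242 ± 17.1 to 1176 ± 96.7), the glutamate transporter SLC1A3 (204 ± 31.7 to 834 ± 59.0) and SFRP1, an SFRP2 relative (6673 ± 175 to 16162 ± 34.0).

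Most measured neuronal genes fell. Of 34 listed, 21 were measured, 16 fell and 5 rose, with a median of −1.81, and 15 of the falls were at least 2-fold. The adhesion molecule NCAM1 fell from 2129.7 ± 178 to 21.9 ± 2.26 (−6.54 ± 0.11), the microtubule regulator STMN2 from 233 ± 6.92 to 4.94 ± 2.21 (−5.36 ± 0.25) and TAGLN3, an actin-binding protein of neurons, from 140.1 ± 6.42 to 3.52 ± 2.20 (−5.11 ± 0.29). Of the 5 rises, 4 by library totals, 2 were at least 2-fold. NEFM, the medium neurofilament, rose from 155 ± 25.6 to 731 ± 48.5 (2.24 ± 0.17), MAPT (tau) from 54.5 ± 8.70 to 221 ± 13.7 (2.01 ± 0.18) and the intermediate filament INA from 1084 ± 68.1 to 2085 ± 179.5 (0.94 ± 0.08). MAP2 and L1CAM also rose, by under 2-fold.

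Guidance molecules steer axons and also sort other cells. Of 50 measured, 26 fell and 15 rose, against 39.7% and 40.2% of all genes. At least 2-fold, 15 fell and 8 rose, against 14.4% and 16.4%, and the median was −0.31. The netrin receptor DCC fell from 200.1 ± 20.5 to 1.76 ± 0.606, and the ephrin receptor EPHA7 from 132 ± 19.3 to 1.77 ± 2.21. EPHA1, an ephrin receptor of epithelia, rose from 85.0 ± 17.2 to 1375 ± 75.2 (4.02 ± 0.12) and stood at 1625 ± 57.8 in undifferentiated cells. SEMA7A, a membrane-anchored semaphorin, rose from 845 ± 77.6 to 4957 ± 45.0 (2.56 ± 0.08) and the laminin-like netrin NTN4 from 126 ± 22.9 to 548 ± 35.9 (2.12 ± 0.15).

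**Figure D2:**
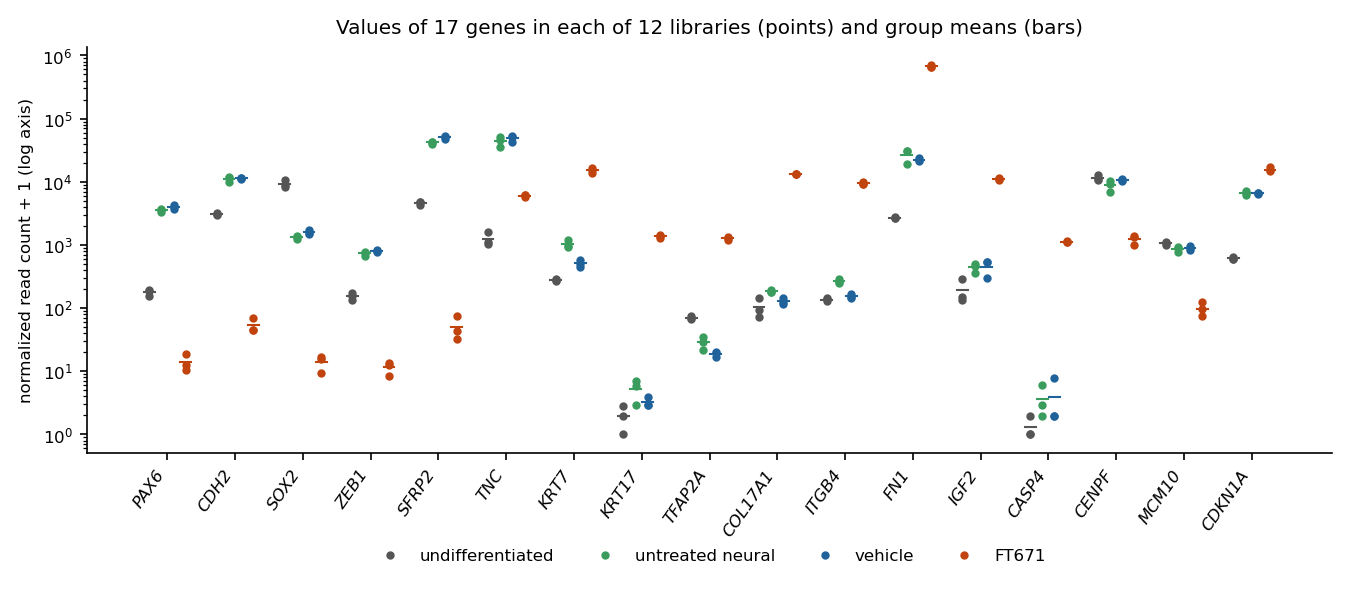
Normalized read count plus 1 (log axis) of 17 genes in every library of the 4 groups, with bars at the group means. Untreated neural and vehicle libraries lie together for most genes, and FT671 libraries lie far below them for PAX6, CDH2, SOX2, ZEB1 and SFRP2 and far above for KRT17, TFAP2A, COL17A1 and ITGB4.

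Transcription and splicing factors of epithelia rose. Of 35 listed, 28 were measured; 25 rose and 2 fell, 22 and 1 at least 2-fold, with a median of 3.30. TFAP2A, a factor of surface ectoderm, amnion and trophoblast, read 19.4, 18.4 and 15.6 in the vehicle libraries and 1217, 1304 and 1327 in the FT671 libraries, and undifferentiated cells held 69.7 ± 4.23. The FT671 level was above every library of the other 3 groups, as the plot of values by library shows (log2 fold change 6.10 ± 0.17, adjusted p = 6.92e-15). VGLL1, a cofactor of TEAD factors in trophoblast, read 12.6, 19.4 and 6.84 in the vehicle libraries and 1345, 1449 and 1307 in the FT671 libraries (log2 fold change 6.72 ± 0.35, adjusted p = 1.60e-11). HAND1, a helix-loop-helix factor of trophoblast, amnion and heart, had no vehicle read and averaged 103 counts with FT671, at least 106-fold higher against the floor of 3 reads. The exceptions were MSX1, a homeobox factor of neural folds and limb, which fell from 247 ± 36.9 to 7.76 ± 1.62 (−4.83 ± 0.21), and TEAD4, which fell from 803 ± 94.4 to 452 ± 12.0, while MSX2 rose from 80.1 ± 5.42 to 895 ± 38.0. For TFAP2A, VGLL1 and HAND1 the difference between vehicle and untreated neural cells did not pass the test.

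Keratins, the intermediate filaments of epithelia, rose in 8 of 9 measured cases, each at least 2-fold, with a median of 2.91. All 9 were already higher in untreated neural than in undifferentiated cells, with a median of 1.81. The summed level of the list was 8158 to 8758 in undifferentiated cells, 37088 to 38778 with vehicle and 151287 to 171775 with FT671. KRT17, a keratin of basal and wounded epithelium, read 1.94, 1.94 and 2.93 with vehicle against 1361, 1281 and 1452 with FT671 (log2 fold change 8.72 ± 0.39, adjusted p = 2.43e-12), and no vehicle library held more than 3 counts. KRT7, of simple epithelia, read 441, 504 and 582 in the vehicle libraries and 15539, 16675 and 13852 in the FT671 libraries (log2 fold change 4.92 ± 0.11, adjusted p = 4.28e-16). Untreated neural cells held more KRT7 than vehicle cells (1023 ± 151 counts; vehicle minus untreated −1.01, adjusted p = 3.89e-04). The FT671 libraries exceeded both groups. KRT23 rose from 7.46 ± 2.03 to 588 ± 34.8, and KRT8, one of the 10 genes with most reads under FT671, from 26117 ± 705 to 87412 ± 4158. KRT10, a keratin of the suprabasal epidermis, fell slightly, from 496 ± 41.4 to 364 ± 11.3 (−0.45 ± 0.12).

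Epithelial junction and polarity genes rose with few exceptions. Of 44 measured, 39 rose and 3 fell, 33 and 2 at least 2-fold, with a median of 2.07. RAB25, a small GTPase of apical recycling, read 72.9, 102 and 101 in the vehicle libraries and 3317, 3494 and 3443 in the FT671 libraries (log2 fold change 5.22 ± 0.13, adjusted p = 1.41e-15). MARVELD3, a tight junction protein, rose from 40.2 ± 5.13 to 1370.4 ± 32.2 (5.06 ± 0.12) and the apical determinant CRB3 from 40.9 ± 2.83 to 862 ± 50.0 (4.37 ± 0.12). RAB25, MARVELD3 and CRB3 were lower in vehicle than in untreated cells, which held 175, 67.9 and 63.3 counts. The FT671 values lay far above both, and with untreated cells as the control 40 of 44 genes rose and 3 fell. The 3 falls were the claudin CLDN1 (967 ± 61.8 to 270.2 ± 28.4), the junction scaffold CGNL1 (1786 ± 40.3 to 819 ± 47.6) and beta-catenin, CTNNB1 (15603 ± 543 to 12223 ± 625).

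Hemidesmosomes anchor basal epithelial cells to a laminin of the basement membrane. Of 10 genes for their parts and that laminin, 9 rose and 0 fell, 6 of them at least 2-fold, with a median of 2.36. All 10 were already higher in untreated neural than in undifferentiated cells, with a median of 1.18. COL17A1, the transmembrane collagen of the hemidesmosome, read 116, 124 and 145 in the vehicle libraries and 13472, 13164 and 13521 in the FT671 libraries (log2 fold change 6.70 ± 0.16, adjusted p = 1.43e-15). The integrin subunit ITGB4 read 142, 150.1 and 169 in the vehicle libraries and 9392, 9207 and 9835 in the FT671 libraries (log2 fold change 5.94 ± 0.09, adjusted p = 1.12e-17), and the laminin chain LAMB3 rose from 182 ± 19.1 to 9641 ± 553 (5.73 ± 0.11). FT671 libraries lay above all vehicle libraries for the 3 genes. ITGB4 and LAMB3 were lower in vehicle than in untreated cells (268 and 260.3 counts), and far above both with FT671. ITGA6, the partner of ITGB4, changed much less, from 5295 ± 282 to 7814 ± 116 (0.56 ± 0.07). Genes of the cornified envelope, the shell of stratified epithelium, rose in 10 of 11 measured cases out of 28 listed. The precursor protein gene SCEL rose from 13.9 ± 3.96 to 1554 ± 34.1, against 34.8 ± 2.31 untreated, and SFN (14-3-3 sigma) from 413 ± 28.3 to 4605 ± 166 (3.48 ± 0.16). ANXA1, an abundant annexin, fell from 26958 ± 1519.7 to 15700.0 ± 481 (−0.78 ± 0.18).

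Factors of epithelial-mesenchymal transition went opposite to the junction genes. The ZEB and SNAI factors among them repress E-cadherin and other epithelial genes in many tissues. Of 7 measured members of the whole list, 6 fell and 1 rose, 5 falls being at least 2-fold, with a median of −2.62. ZEB1 read 819.8, 763 and 811 in the vehicle libraries and 11.7, 7.37 and 12.7 in the FT671 libraries, and FT671 libraries lay below the undifferentiated mean of 153 (log2 fold change −6.14 ± 0.16, adjusted p = 2.87e-15). ZEB2 read 1434, 1377 and 1395 in the vehicle libraries and 24.4, 25.3 and 23.4 in the FT671 libraries (log2 fold change −5.79 ± 0.11, adjusted p = 1.38e-16). SNAI2 (Slug) was the exception and rose from 231 ± 46.6 to 449 ± 48.1 (0.97 ± 0.18). FOXC2, a forkhead factor of mesenchyme, went from 105 ± 24.3 counts to 3 reads, 99.0-fold lower (95% counting interval 33.6 to 483).

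**Figure D3:**
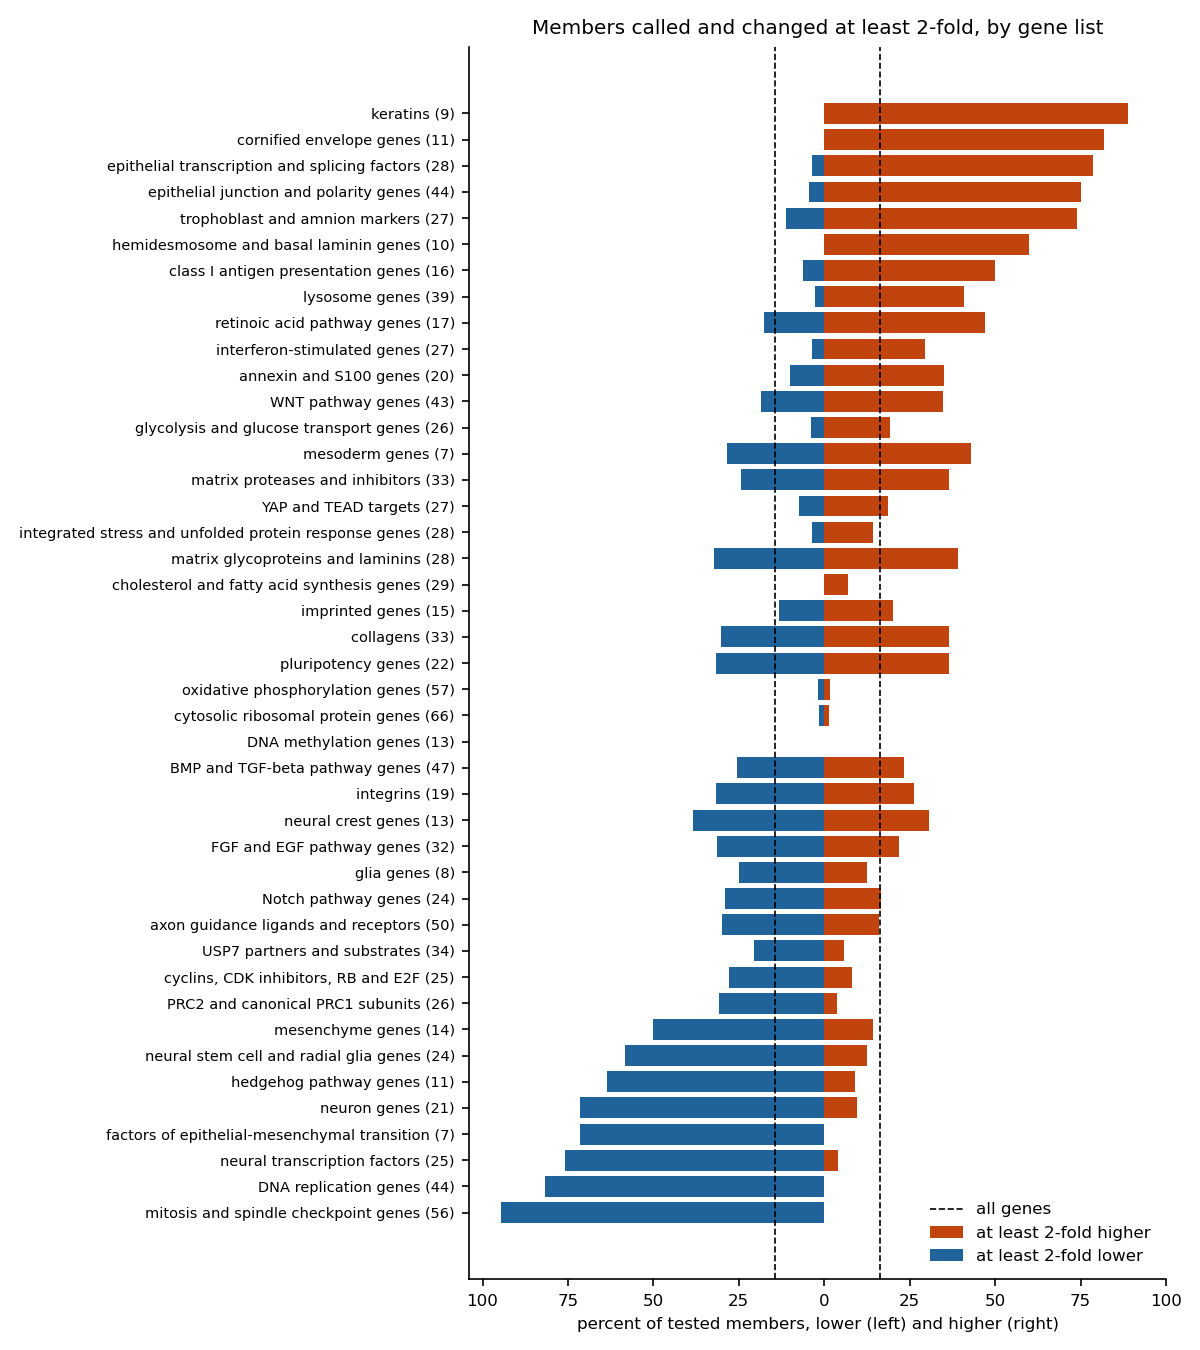
Percent of the tested members of gene lists (number tested in brackets, lists with at least 7) that were called and changed at least 2-fold, lower to the left in blue and higher to the right in orange. Dashed lines mark all genes at 14.4% lower and 16.4% higher; mitosis, replication and neural lists extend left, and keratins and other epithelial lists extend right.

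Genes of the extracellular matrix went both ways. Among 28 matrix glycoproteins and laminins, 17 rose and 9 fell, 11 and 9 at least 2-fold, with a median of 0.76. FN1, fibronectin, read 22107, 21714 and 23513 in the vehicle libraries and 660960.0, 667511 and 694578 in the FT671 libraries (log2 fold change 4.91 ± 0.13, adjusted p = 4.69e-15). FN1 was the gene with the most reads in each FT671 library, at 3.65% to 3.81% of reads, while the top gene of each vehicle library, the mitochondrially encoded COX1, held 0.772% to 0.877%. The 10 most abundant genes together took 8.55% to 8.70% of reads with FT671 and 4.92% to 5.30% with vehicle. TNC, tenascin C, a matrix protein of neural stem cell niches, read 42419, 50390.0 and 53476 in the vehicle libraries and 6175, 6186 and 5763 in the FT671 libraries and stayed above the undifferentiated mean of 1259 (log2 fold change −3.01 ± 0.15, adjusted p = 6.98e-12). The basement membrane linker NID2 fell from 6917 ± 295 to 362 ± 35.0 (−4.26 ± 0.10) and the laminin chain LAMA4 from 230.0 ± 30.4 to 7.41 ± 1.09 (−4.78 ± 0.18). NPNT, nephronectin, rose from 7.77 ± 2.54 to 171 ± 12.4 and the laminin chain LAMC3 from 7.79 ± 2.93 to 164 ± 22.7.

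Of 33 collagens, 16 rose and 15 fell, shares near the 40.2% and 39.7% of all genes, with 12 and 10 at least 2-fold and a median of −0.04. Beside COL17A1, COL9A3 rose from 51.2 ± 3.20 to 1797 ± 58.1 (5.11 ± 0.13) and the basement membrane chain COL4A4 from 22.1 ± 8.30 to 655 ± 22.2 (4.91 ± 0.22). COL25A1, a membrane collagen of neurons, fell from 444 ± 97.8 to 10.9 ± 1.56 (−5.21 ± 0.20), the fibrillar COL11A1 from 2959 ± 651 to 160.4 ± 38.8 (−4.20 ± 0.17) and COL14A1 from 1353 ± 104 to 119.6 ± 11.2. The type I chains COL1A1 and COL1A2 rose together, from 11263 ± 2912 to 25885 ± 1468 and from 38827 ± 4548 to 86503 ± 1397, whereas the type III chain COL3A1 fell from 200.0 ± 21.9 to 21.1 ± 6.83. Among 19 integrins, 10 rose and 8 fell, 5 and 6 at least 2-fold, against 16.4% and 14.4% of all genes. When scaled by library totals, 8 rose and 9 fell. ITGB6, an epithelial subunit that activates TGF-beta, rose from 939.7 ± 66.7 to 8379 ± 435 (3.16 ± 0.29) and ITGB3 from 14.3 ± 1.96 to 201 ± 27.6. The alpha subunits ITGA4 (133 ± 27.7 to 4.93 ± 3.69), ITGA9 (2112 ± 88.0 to 142 ± 7.71) and ITGA11 (281 ± 40.5 to 49.4 ± 3.34) fell. Of 33 matrix proteases and inhibitors, 19 rose and 10 fell, 12 and 8 at least 2-fold, against 16.4% and 14.4% of all genes. The metalloprotease ADAM8 rose from 75.9 ± 15.4 to 2434 ± 231 (5.00 ± 0.14) and the urokinase receptor PLAUR from 939 ± 72.7 to 3460.3 ± 204, while ADAM12 fell from 230.2 ± 15.6 to 25.4 ± 3.88 and tissue plasminogen activator, PLAT, from 1315 ± 56.6 to 331 ± 29.7.

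Markers used for trophoblast and amnion rose in 23 of 27 measured cases and fell in 3, with 20 and 3 at least 2-fold and a median of 3.05. Of 44 listed, 17 were not in the table. The list shares TFAP2C, GATA2, GATA3 and HAND1 with the epithelial factors. MUC15, a membrane mucin of placenta, went from 3 vehicle reads to 349 counts, 359-fold higher (95% counting interval 122 to 1741). GABRP, a GABA receptor subunit used as an amnion marker, read 0.972, 0 and 0.977 with vehicle against 155, 226 and 99.8 with FT671, with a wide spread between FT671 libraries, and averaged 115 in undifferentiated cells. The 3 members that fell are secreted factors of placenta, PAPPA2 (140.4 ± 20.8 to 32.5 ± 3.55), PGF (856 ± 25.3 to 339 ± 28.1) and PAPPA (3447 ± 182 to 1456 ± 54.0). The summed level of the list was 21125 to 22605 with vehicle and 50036 to 55699 with FT671. Many of these genes are also expressed in other epithelia.

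Of 15 imprinted genes 5 rose and 7 fell, 3 and 2 at least 2-fold, shares near those of all genes. IGF2, a fetal growth factor, read 304, 529 and 531 in the vehicle libraries and 11459, 10717 and 11247 in the FT671 libraries (log2 fold change 4.66 ± 0.23, adjusted p = 1.04e-11). H19, the noncoding RNA next to IGF2, read 4470.5, 7641 and 7967 in the vehicle libraries and 58676, 56427 and 53212 in the FT671 libraries (log2 fold change 3.11 ± 0.16, adjusted p = 1.98e-11). The groups did not overlap for either gene, and neither passed the test between vehicle and untreated neural cells. MEST rose from 2894 ± 111 to 9614 ± 247, and NNAT, a neuronal imprinted gene, fell from 143 ± 16.8 to 56.1 ± 7.18. PHLDA2, a placental growth regulator, also fell, from 639 ± 18.8 to 287 ± 44.2. Class I antigen presentation genes rose in 12 of 16 cases and fell in 3, 8 and 1 at least 2-fold, with a median of 0.98. HLA-G, a class I molecule of trophoblast, rose from 83.0 ± 8.97 to 1768 ± 99.3 (4.40 ± 0.15), HLA-F from 21.1 ± 6.70 to 248 ± 18.9 and HLA-E from 1538 ± 107 to 4960.0 ± 263. Reads shared between these near-identical class I genes could not be checked, so their separate values are uncertain.

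The cell cycle genes fell as a block. All 56 measured mitosis and spindle checkpoint genes fell, 53 of them at least 2-fold, with a median of −2.15 and a range of −3.11 to −0.82. CENPF, a kinetochore protein of G2 and mitosis, read 11009, 10378 and 10831 in the vehicle libraries and 1354, 1394 and 1012 in the FT671 libraries (log2 fold change −3.11 ± 0.13, adjusted p = 1.03e-12). The spindle checkpoint kinase BUB1B read 2444, 2392 and 2359.8 in the vehicle libraries and 338, 326 and 264 in the FT671 libraries (log2 fold change −2.96 ± 0.09, adjusted p = 1.74e-14), and the kinesin KIF18A fell from 562 ± 35.8 to 90.3 ± 27.5 (−2.67 ± 0.17). FT671 libraries lay below all vehicle libraries for each. Of 44 DNA replication genes, 43 fell and 0 rose, 36 falls being at least 2-fold, with a median of −1.78. The origin factor MCM10 read 972, 910.5 and 829.6 in the vehicle libraries and 95.4, 122 and 75.4 in the FT671 libraries (log2 fold change −3.22 ± 0.13, adjusted p = 9.99e-13). The helicase subunits MCM2 and CDC45 fell from 3619 ± 171 to 515 ± 67.5 (−2.82 ± 0.08) and from 712 ± 33.5 to 105 ± 2.08 (−2.75 ± 0.08). RFC1, a clamp loader subunit, was the member that did not pass. Replication and mitosis genes had been slightly lower in untreated neural than in undifferentiated cells, with medians of −0.31 and −0.43. FT671 levels of CENPF, BUB1B and MCM10 were below both.

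The promoters of these genes hold short elements known from cell cycle control. Examples from the mitosis and replication lists are shown, since most genes of these lists fell. The cell cycle homology region, TTTGAA or TTCGAA, is bound by the DREAM and MuvB complexes, and E2F proteins bind TTTCCCGC-like sites. The sequences are from RefSeq on build GRCh38.p14, run 5′ to 3′ on the strand of the gene, cover 250 bases before to 50 after the start, and have the matching letters, read on either strand, in capitals. CENPF (chr1:214602945-214603244, plus strand) and BUB1B (chr15:40160819-40161118, plus strand) are the largest falls holding the homology region among the mitosis genes considered for display. MCM7 (chr7:100101348-100101647, minus strand) and CLSPN (chr1:35769929-35770228, minus strand) are the largest falls holding an E2F-like element among the replication genes considered. These 2 were chosen after the share of such promoters had been seen. Genes without a matched promoter, or at some locations, were not considered for display.
CENPF: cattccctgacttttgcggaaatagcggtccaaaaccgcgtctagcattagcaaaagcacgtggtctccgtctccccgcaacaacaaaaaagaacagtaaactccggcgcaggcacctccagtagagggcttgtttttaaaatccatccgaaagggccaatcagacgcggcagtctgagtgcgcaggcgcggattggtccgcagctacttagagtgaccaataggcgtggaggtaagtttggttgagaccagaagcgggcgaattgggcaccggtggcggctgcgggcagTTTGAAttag
BUB1B: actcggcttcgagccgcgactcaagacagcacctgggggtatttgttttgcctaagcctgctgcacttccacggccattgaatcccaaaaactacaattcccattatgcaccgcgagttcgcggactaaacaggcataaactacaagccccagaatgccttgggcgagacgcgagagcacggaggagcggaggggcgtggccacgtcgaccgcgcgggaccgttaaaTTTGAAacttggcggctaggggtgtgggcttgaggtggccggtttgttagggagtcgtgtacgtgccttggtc
MCM7: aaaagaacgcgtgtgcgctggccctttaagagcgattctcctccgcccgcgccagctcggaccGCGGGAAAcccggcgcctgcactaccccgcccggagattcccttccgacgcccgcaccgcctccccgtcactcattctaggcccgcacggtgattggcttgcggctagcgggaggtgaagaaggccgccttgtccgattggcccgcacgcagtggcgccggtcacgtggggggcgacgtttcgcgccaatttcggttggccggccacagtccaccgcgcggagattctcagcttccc
CLSPN: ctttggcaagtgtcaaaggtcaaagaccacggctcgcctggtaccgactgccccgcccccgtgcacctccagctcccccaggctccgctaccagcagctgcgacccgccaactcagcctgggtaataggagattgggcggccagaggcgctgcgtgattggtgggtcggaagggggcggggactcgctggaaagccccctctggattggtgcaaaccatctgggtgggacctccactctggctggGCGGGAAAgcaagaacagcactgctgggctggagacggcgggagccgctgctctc

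Of 56 mitosis genes, 49 had a promoter in the table, and 35 of these (71.4%) held TTTGAA or TTCGAA, against 11.1% of 10201 promoters of all tested genes. CCAAT, bound by NF-Y, was in the same number of mitosis promoters, 71.4% against 36.4% of all. Among 37 replication promoters, 16 (43.2%) held TTTCCCGC or TTTGGCGC, against 3.58% of all, while 5.41% held the homology region. Over the 10201 genes with a promoter, 22.1% of the 1128 with the homology region letters fell at least 2-fold, and 12.7% of the 9073 without. As large a rise was found for 13.3% and 15.5%. Outside the mitosis and replication lists the falling shares were 19.6% and 12.3%. Cell cycle genes not on these lists were not left out. For the E2F-like letters 19.7% of 365 and 13.5% of 9836 fell and 7.12% and 15.6% rose, and the falling shares were 15.4% and 13% outside the lists. All motifs were searched on both strands, and each was counted whether or not its letters overlapped another. A match is a description of these letters, not a bound site.

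For the epithelial genes a grainyhead-like element, AACNNGTT, was searched, since grainyhead factors act on junction genes. It was in 1 of 25 junction promoters (4%) and 0 of 16 promoters of epithelial factors, against 2.38% of all. That gene, CGN, encodes the tight junction protein cingulin and rose from 1474 ± 34.4 to 6227 ± 84.2 (2.08 ± 0.06); its promoter (chr1:151511137-151511436, plus strand) is shown for the position of the match.
CGN: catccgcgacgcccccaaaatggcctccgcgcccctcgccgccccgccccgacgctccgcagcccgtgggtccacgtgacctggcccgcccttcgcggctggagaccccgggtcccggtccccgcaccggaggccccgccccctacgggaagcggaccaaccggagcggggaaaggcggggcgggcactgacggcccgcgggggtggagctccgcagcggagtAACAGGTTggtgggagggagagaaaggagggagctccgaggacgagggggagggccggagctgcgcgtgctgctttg
A TFAP2-like element, GCCNNNGGC, was in 11 of the 25 junction promoters (44%) and 5 of the 16 promoters of epithelial factors (31.2%), against 32.7% of all.

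**Figure D4:**
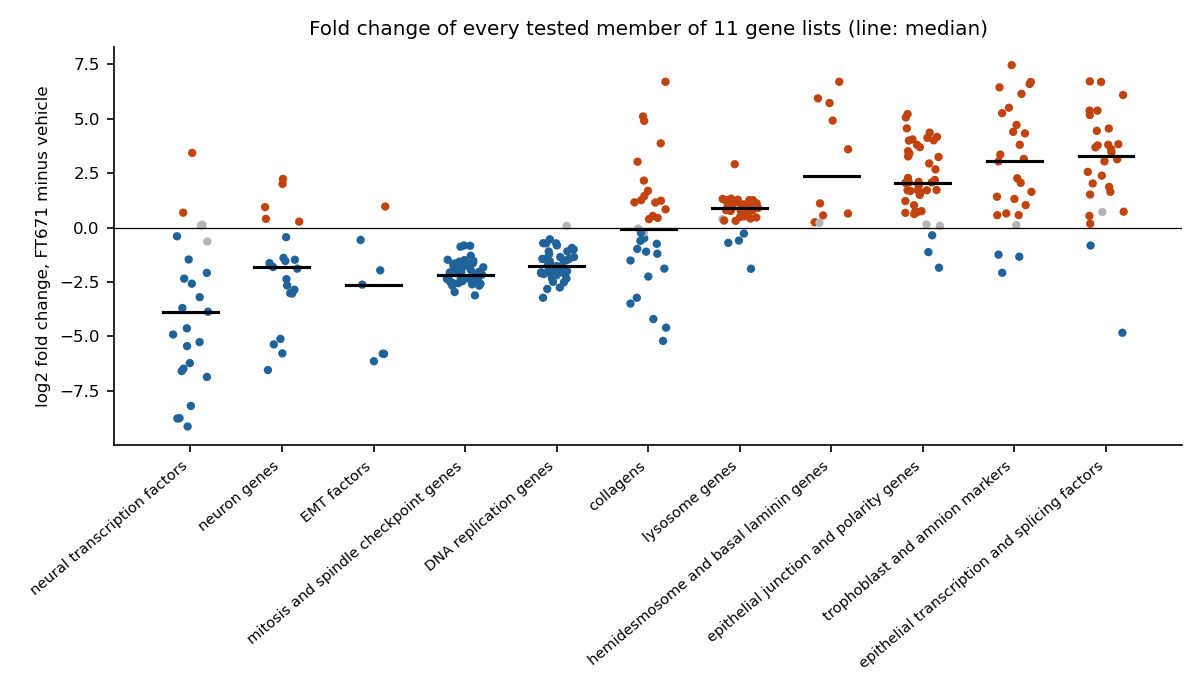
Log2 fold change, FT671 minus vehicle, of every tested member of 11 gene lists, orange for genes called higher, blue for called lower and grey for not called, with a line at each median. Mitosis and replication genes form tight groups below 0, neural and epithelial genes spread over a wider range on opposite sides, and collagens fall on both sides.

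Cyclins, CDK inhibitors, RB and E2F genes did not move as a block, with 9 up and 12 down of 25. At least 2-fold, 2 rose and 7 fell, against 16.4% and 14.4% of all genes, and the median was −0.05. The E2F factors E2F2 and E2F1, which drive S phase genes, fell from 315 ± 9.43 to 37.0 ± 9.14 (−3.09 ± 0.15) and from 1258 ± 45.2 to 257 ± 41.1 (−2.30 ± 0.10). The late repressor E2F7 also fell, from 1450.3 ± 35.1 to 313 ± 39.8 (−2.21 ± 0.12). Of the CDK inhibitors, CDKN1A (p21) read 6573, 6327 and 6756 in the vehicle libraries and 15135, 14701 and 16942 in the FT671 libraries (log2 fold change 1.25 ± 0.07, adjusted p = 4.00e-11), while untreated neural cells averaged 6623 and undifferentiated cells 613. CDKN2B (p15) rose from 402 ± 35.8 to 818 ± 50.0 and CDKN2D (p19) from 223 ± 16.2 to 446 ± 37.8.

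Of 34 transcripts of proteins known as USP7 partners or substrates, 19 fell and 9 rose, against 39.7% and 40.2% of all genes. At least 2-fold, 7 fell and 2 rose, against 14.4% and 16.4% of all genes, and the median was −0.22. The replication checkpoint protein CLSPN fell from 1005 ± 16.6 to 180.1 ± 34.4 (−2.49 ± 0.15) and the phosphatase CDC25A from 1139 ± 89.8 to 279 ± 39.2 (−2.03 ± 0.09). Both belong to the cell cycle lists as well. The ligase MDM2 went from 2943 ± 90.6 to 3366 ± 124 (0.19 ± 0.07). FOXO4, a forkhead factor, rose from 282 ± 32.7 to 892 ± 69.0 (1.66 ± 0.10), and the transcription-coupled repair genes ERCC6 and UVSSA rose from 220.5 ± 22.1 to 580.1 ± 15.5 and from 386 ± 55.6 to 725 ± 93.7. In a list of PRC2 and PRC1 genes, 16 of 26 fell and 8 rose, 8 and 1 at least 2-fold. EZH2, the PRC2 methyltransferase, fell from 1613 ± 99.0 to 425 ± 38.9 (−1.93 ± 0.08), AUTS2 from 1567 ± 99.3 to 405 ± 31.8 and the PRC2 accessory factor PHF19 from 2171 ± 118 to 634 ± 56.4. In the 13 DNA methylation genes, 7 fell and 4 rose, none at least 2-fold, with DNMT1, the maintenance methyltransferase, down from 5116 ± 257 to 2657 ± 37.9.

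Among signalling pathways, hedgehog genes mostly fell. Of 43 WNT pathway genes, 20 rose and 19 fell, near the 40.2% and 39.7% of all genes, with 15 and 8 at least 2-fold. Ligands were among the rises, WNT11 with 2.59 ± 1.11 counts against 196 with FT671, and WNT6 from 7.14 ± 2.47 to 359.6 ± 31.6 (5.51 ± 0.37). The receptor-degrading ligase RNF43 rose from 27.6 ± 8.45 to 903 ± 32.2 (5.03 ± 0.18). The nuclear effector LEF1 fell from 198 ± 26.5 to 31.4 ± 3.32 (−2.62 ± 0.17) and the receptor FZD3 from 1029 ± 25.2 to 450.2 ± 28.9. Hedgehog genes fell in 10 of 11 cases, with a median of −1.18, while the ligand SHH rose from 24.0 ± 9.75 to 127 ± 27.4 (2.40 ± 0.28). The receptor and target PTCH1 read 1191, 1277 and 1188 in the vehicle libraries and 284, 297 and 278 in the FT671 libraries (log2 fold change −2.09 ± 0.10, adjusted p = 7.09e-12), the co-receptor GAS1 fell from 734 ± 5.46 to 142 ± 9.87 and the effector GLI3 from 1554 ± 131 to 524 ± 17.1.

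Among 47 BMP and TGF-beta genes, 18 rose and 21 fell, again near the shares of all genes. At least 2-fold, 11 rose and 12 fell, against 16.4% and 14.4% of all genes. The secreted BMP antagonist GREM1 read 3726, 4428 and 4684 in the vehicle libraries and 73.1, 70.5 and 98.7 in the FT671 libraries (log2 fold change −5.72 ± 0.12, adjusted p = 2.21e-16). The ligand BMP2 fell from 722 ± 69.8 to 71.9 ± 6.20 (−3.31 ± 0.14) and its receptor BMPR1B from 111 ± 4.87 to 29.6 ± 8.63. The follistatin relative FSTL3 rose from 232 ± 33.6 to 3183 ± 208 (3.78 ± 0.12), BMP5 from 16.5 ± 7.59 to 106 ± 22.9 and the activin subunit INHBA from 29.2 ± 6.19 to 171 ± 20.9. Of 32 FGF and EGF genes, 17 fell and 11 rose, 10 and 7 at least 2-fold, with a median of −0.72. FGFR3 rose from 96.0 ± 37.4 to 1003 ± 81.7 and the receptor ERBB3 from 163 ± 21.7 to 2611 ± 157, whereas the FGF carrier FGFBP3, the effector ETV1 and the ligand EGF fell from 1135 ± 143 to 65.2 ± 1.35, from 539.7 ± 52.6 to 38.4 ± 8.53 and from 333 ± 38.3 to 26.1 ± 1.10. Notch genes fell in 13 and rose in 8 of 24 cases, 7 and 4 at least 2-fold, against 14.4% and 16.4% of all genes. Targets HEY1 (351 ± 34.7 to 19.8 ± 4.92), LFNG (452 ± 68.5 to 46.5 ± 16.5) and NRARP (493 ± 55.9 to 84.3 ± 7.83) fell, while the ligand JAG2 rose from 459 ± 39.7 to 1613 ± 62.9. HES2, a member of the HES family that was also lower in vehicle than in untreated cells (95.4 counts), rose from 42.8 ± 1.69 to 3064 ± 258 (6.13 ± 0.13). In the retinoic acid pathway 12 of 17 genes rose and 4 fell, 8 and 3 at least 2-fold. Enzymes that make retinoic acid diverged: ALDH1A1 went from 331 ± 77.6 counts to no read, at least 313-fold lower, and ALDH1A3 rose from 48.0 ± 8.99 to 619 ± 31.4 (3.68 ± 0.14).

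Metabolic and organelle genes changed by smaller amounts. Lysosome genes rose in 34 of 39 cases and fell in 4, 16 and 1 at least 2-fold, with a median of 0.89. The cathepsin CTSH rose from 229.8 ± 22.1 to 1735 ± 41.9 (2.92 ± 0.09), the membrane protein LAMP2 from 2306 ± 7.73 to 5805 ± 89.7 and the sulfatase ARSA from 486 ± 55.2 to 1208 ± 12.7, while the cathepsin CTSC fell from 5269 ± 85.5 to 1424 ± 90.6 (−1.89 ± 0.06). Glycolysis and glucose transport genes rose in 16 and fell in 7 of 26 cases, 5 and 1 at least 2-fold, against 16.4% and 14.4% of all genes. The glucose transporter SLC2A3 read 4351, 4714 and 4684 in the vehicle libraries and 78017, 83084 and 77321 in the FT671 libraries (log2 fold change 4.12 ± 0.07, adjusted p = 1.97e-17). Its near-identical copy SLC2A14 rose from 63.2 ± 4.73 to 1072 ± 33.4, and reads shared by the pair could not be checked. LDHB fell from 14800.2 ± 608 to 6493 ± 145. Interferon-stimulated genes rose in 16 and fell in 6 of 27, 8 and 1 at least 2-fold. MX1 rose from 55.8 ± 10.7 to 288 ± 39.1, against 102 untreated, and IFIT3 fell from 141 ± 23.7 to 65.6 ± 11.3.

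In some families the counts depended on the scaling or the control. Of all genes, 40.2% rose and 39.7% fell by the main scaling. Ribosomal protein genes, whose processed copies make counts uncertain, rose in 10 and fell in 15 of 66 cases, and in 6 and 28 by library totals. Oxidative phosphorylation genes rose in 32 and fell in 7 of 57 cases, but in 15 and 12 by library totals and in 12 and 13 with untreated neural cells as the control. Of 27 YAP and TEAD targets 13 rose and 8 fell, or 10 and 10 by library totals. Integrated stress and unfolded protein response genes rose in 12 and fell in 8 of 28, or in 10 and 11 by library totals, with the cystine transporter SLC7A11 down from 944 ± 149 to 202 ± 42.9 (−2.23 ± 0.15) and the chaperone DNAJB9 up from 362 ± 15.1 to 934 ± 68.2. Cholesterol and fatty acid genes rose in 16 and fell in 4 of 29, or in 12 and 8 by library totals. Counts of annexin and S100 genes hardly moved, with 12 rises and 7 falls of 20, and 11 and 7 by library totals. Among them S100A14 rose from 12.96 ± 2.19 to 1109 ± 80.7 (6.32 ± 0.26) and S100A4 fell from 3819 ± 265 to 665 ± 43.7 (−2.52 ± 0.11).

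Markers of other cell types did not rise as whole lists. Pluripotency genes rose in 9 and fell in 9 of 22 cases, 8 and 7 at least 2-fold, against 16.4% and 14.4% of all genes. Their summed level was 25828 to 28184 with vehicle, 24341 to 25541 with FT671 and 125204 to 126451 in undifferentiated cells. Within the list, L1TD1, an RNA-binding protein of stem cells, rose from 74.2 ± 16.4 to 2498 ± 405 (5.06 ± 0.15). TFCP2L1 rose from 18.8 ± 5.86 to 388 ± 27.8 and CD9 from 473 ± 19.9 to 7036 ± 253. LIN28A, another RNA-binding protein, fell from 8861 ± 626 to 1097 ± 152 (−3.02 ± 0.09). The core factor POU5F1 had 1.62 ± 1.48 counts with vehicle and 4.23 with FT671, against 2459 undifferentiated. Neural crest genes rose in 6 and fell in 6 of 13 cases, near the 40.2% and 39.7% of all genes, with 4 and 5 at least 2-fold. SOX9 rose from 676 ± 26.8 to 1593 ± 85.7, and PAX3 (174 ± 15.8 to 11.3 ± 3.28) and NGFR (371 ± 90.9 to 26.8 ± 4.94) fell. Of 14 mesenchyme genes 4 rose and 9 fell, 2 and 7 at least 2-fold. The cadherin CDH11 fell from 1189.7 ± 106 to 32.1 ± 6.32 (−5.18 ± 0.14) and THY1 from 1486 ± 72.2 to 143 ± 14.6. COL1A1, COL1A2 and SPARC rose, and the summed level of the mesenchyme list was 82458 to 98601 with vehicle and 160620 to 166491 with FT671. The mesoderm receptor KDR fell from 706 ± 86.8 to 11.3 ± 7.08 (−6.00 ± 0.27), and the endothelial genes TIE1 (649.8 ± 123 to 34.6 ± 8.10) and TEK (299 ± 45.4 to 19.1 ± 3.74) fell while RUNX1 rose from 535 ± 76.9 to 1123 ± 122. Of 7 mesoderm genes 3 rose and 3 fell, of 4 blood and endothelial genes 1 rose and 3 fell, and of 4 germline genes 3 rose and 1 fell. Endoderm and glia lists had 2 and 8 measured genes, with summed levels of 94.3 to 109.4 and 1105 to 1188 counts with FT671. The part of other cells in the results above was not tested.

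The change with FT671 can be read against what differentiation did on its own, using untreated neural and undifferentiated libraries, which share no library with FT671 against vehicle. Between these groups 10917 genes were called (82%). Of 825 genes at least 4-fold higher in untreated neural cells, 278 (33.7%) fell and 205 (24.8%) rose at least 2-fold with FT671, with a median of −0.19. Of 977 genes at least 4-fold lower, 434 (44.4%) rose and 189 (19.3%) fell, with a median of 0.71. Among 6328 genes that were not called or changed under 1.5-fold, 9.92% rose and 11.2% fell. The direction was thus mixed in each class: PAX6 and SFRP2, high in neural cells, fell, but KRT7, FN1 and CDKN1A, also higher in neural than in undifferentiated cells, rose further. Without untreated neural replicate 3 the shares were 34.7% and 24.1% of 827 genes and 44.9% and 19.3% of 983.

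**Figure D5:**
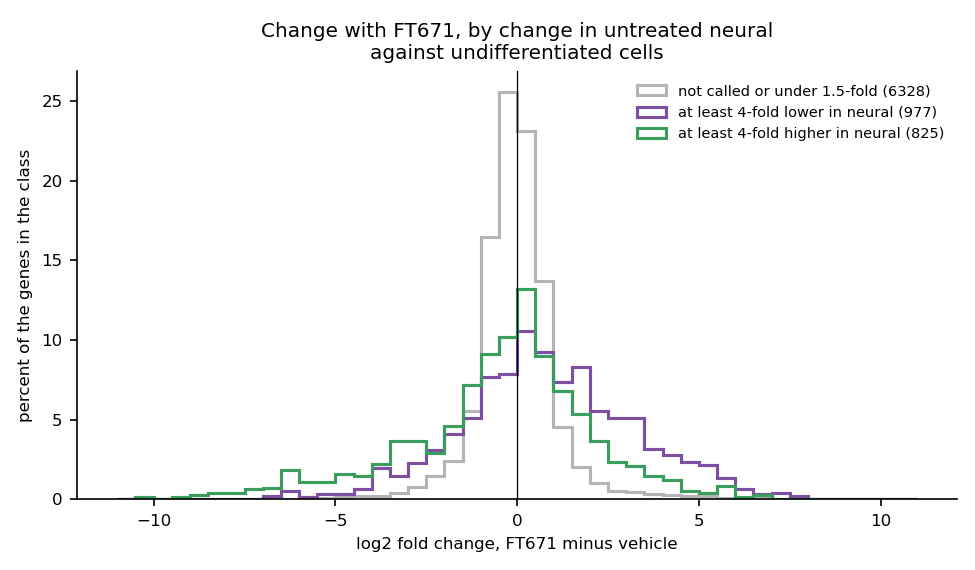
Histograms of the log2 fold change with FT671 (bins of 0.5) for genes at least 4-fold higher (825 genes) or lower (977) in untreated neural than in undifferentiated cells and for genes not called or under 1.5-fold (6328), each as percent of its class. The classes of strongly changed genes are wider than the third class, with medians of −0.19, 0.71 and −0.08.

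The largest changes outside the lists include several genes with almost no vehicle reads. OLR1, a scavenger receptor for oxidized LDL, read 5.83, 0.969 and 0.977 in the vehicle libraries and 1643, 1568 and 1962 in the FT671 libraries (log2 fold change 9.17 ± 0.59, adjusted p = 2.84e-10). CASP4, an inflammatory caspase, read 0.972, 0.969 and 6.84 in the vehicle libraries and 1106, 1108 and 1160.5 in the FT671 libraries (log2 fold change 8.49 ± 0.51, adjusted p = 1.19e-10). The uroplakin UPK1B rose from 1.94 ± 2.56 to 852 ± 32.4, the G-CSF receptor CSF3R from 2.27 ± 2.03 to 788 ± 26.3 and the ion transport regulator FXYD3 from 2.92 ± 0.960 to 579 ± 32.1. SLC27A6, a fatty acid transporter, rose from 6.16 ± 3.68 to 1548 ± 15.4, and NELL1, a secreted signalling protein, from 1.30 ± 0.556 to 345 ± 21.8. ALPP, placental alkaline phosphatase, had 1 vehicle read and averaged 202 counts, 624-fold higher (95% counting interval 112 to 24699); its near copies make the assignment uncertain. Among the falls, the guanine exchange factor DOCK10 read 2212, 1717 and 1792 in the vehicle libraries and 5.30, 4.21 and 2.12 in the FT671 libraries (log2 fold change −8.66 ± 0.21, adjusted p = 9.85e-16). The neural surface protein LSAMP fell from 1539 ± 124 to 7.06 ± 3.25 (−7.65 ± 0.19), the cadherin CDH6 from 1542 ± 252 to 5.99 ± 3.39 (−7.93 ± 0.28) and the co-stimulatory receptor TNFRSF9 from 927 ± 128 to 3.89 ± 2.45 (−7.73 ± 0.41). The contactin CNTN6 went from 414 ± 20.0 counts to 3 reads, 391-fold lower (95% counting interval 134 to 1899). F13A1, a coagulation factor subunit, had 280.5 ± 36.4 counts with vehicle and no read with FT671, at least 265-fold lower. In all, 22 genes with a vehicle mean of at least 100 counts had 3 or fewer FT671 reads, and 10 genes had the reverse.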

How the data were processed

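RNA sequencing of polyadenylated RNA covered 12 libraries of H9 cells, grouped by their titles into 4 groups of 3. Per the submitters' processing notes, the tools were STAR, HTSeq, DESeq2 and R 4.3.1, with hg19 as the build, and settings, strand included, are not given in the sources used here. The deposited signal was made by the authors from gene counts, scaled by a size factor for each library, with 1 added, as the values show. After subtraction of 1, every value (100%) was a whole number of reads to within 0.001, with 15906471 to 17271155 reads in a library. A USP7 heterozygote is named in the sheet's title, and the wild-type genotype of the labels was followed. A further 33 of the 47 columns were not used.

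All 13310 genes entered a limma 3.58.1 fit (R 4.3.3) of log2 values with a pseudocount of 1. The model had 4 group means, used all 12 libraries, and had a variance trend and Benjamini-Hochberg adjustment. The plan allowed for counts, and its form for normalized values was used. The smallest gene mean was 12.2 normalized counts over the 12 libraries, and no filter was added. The test was also run on simulated data in which few genes changed. Most genes were called here, so that run does not cover this setting. Alternatives were other pseudocounts, scalings and filters, edgeR 4.0.16 and DESeq2 1.42.0 on the recovered reads, untreated neural libraries as the control, a replicate block and each library left out.

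The 47 gene lists and the members named were chosen with earlier results of these data known. Named genes are USP7, 5 markers, the 15 largest rises and falls whose groups do not overlap and whose mean is 50 counts or more, up to 3 rises and 3 falls per list, and the 10 genes with most reads per group. Other genes named, and 7 families in the closing section, were chosen after their values were seen. Symbols are those of the table, or were matched from the identifier for 356 of 763 genes without one. Genes have no coordinates here, because the authors' build differs from that of the annotation used here. Promoters were matched by symbol for 10201 genes. Reads shared by paralogs or overlapping genes could not be checked. Some genes and 1 list are not reported here.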

Additional observations from a re-analysis of the deposited data

How the results depend on the processing

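The number of genes called between FT671 and vehicle ranged from 8783 to 11019 over the alternatives, against 10627. The lowest count came from a mean of at least 100 normalized counts, which also left 2816 of 4093 genes changed at least 2-fold, with fewer genes tested. On recovered reads edgeR called 11017 genes (5443 higher and 5574 lower) and DESeq2 10684. Library totals as the scale gave 4595 higher and 5899 lower. Leaving out each library in turn gave 10076 to 10213 genes called, 5085 to 5138 higher, 4983 to 5075 lower and 4014 to 4162 changed at least 2-fold, and 10337 to 10827 for neural against undifferentiated cells. Replicate numbers did not pair the libraries, since vehicle and FT671 libraries of the same number had deviations correlated at 0.03, −0.04 and 0.05; with a replicate block 10527 genes were called, and 10817 for neural against undifferentiated cells. Of the fold changes of named genes recomputed under the alternatives, 4550 stayed on their side of the threshold, 9 lost the call (RPL38, STAG3, COX1 and CYTB), 6 gained it (ACTG1 and ND5) and 0 reversed. Of the list counts, 47 moved by over 1.5 times, most of them in lists with few measured genes, in ribosomal protein and oxidative phosphorylation genes, or under the filter on means. With untreated neural cells as the control 10400 genes were called. Genes with few reads in a group have folds limited by counting, and the table's choice of genes sets which absent genes can be seen.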

Other observations

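Several gene families outside the lists above were looked at after their values had been seen, and are given as values. Chemokines, secreted attractants of immune cells, fell in 9 and rose in 2 of 12 cases, with a median log2 fold change of −2.53 against 0.01 for all genes. CCL2 fell from 4957 ± 992 to 60.6 ± 1.06 normalized counts (−6.31 ± 0.14), CXCL5 from 780.0 ± 157 to 39.8 ± 13.6 and CXCL6 from 23.3 ± 2.01 to 1.06 ± 1.06, while the membrane-bound CXCL16 rose from 85.3 ± 21.2 to 2970.1 ± 21.7 (5.14 ± 0.17). Connexins, the gap junction proteins, exchanged members, with 5 rises and 3 falls of 8, 4 and 2 at least 2-fold. GJA1 (connexin 43), the abundant member of neural progenitors, fell from 8357 ± 268 to 1074 ± 90.2 (−2.96 ± 0.08), and the epithelial GJB6 rose from 1.94 ± 3.36 to 191 ± 37.3. The summed level of the family was 10671 to 11244 with vehicle and 4328 to 4478 with FT671.

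Protocadherins, adhesion molecules of the nervous system, fell in 22 and rose in 6 of 34 cases. At least 2-fold, 13 fell and 4 rose, against 14.4% and 16.4% of all genes. PCDH19 fell from 5095 ± 476 to 41.6 ± 6.42 (−6.91 ± 0.14) and PCDH17 from 54.4 ± 13.2 to 1.41 ± 0.613, while PCDH10 rose from 47.3 ± 4.19 to 386 ± 7.89 (3.00 ± 0.17). Genes of the clustered protocadherins share sequence, so their reads are uncertain. Of 14 classical and type II cadherins 8 fell and 4 rose, 6 and 2 at least 2-fold. CDH1 (E-cadherin) rose from 918 ± 90.1 to 14810.1 ± 704 and CDH3 (P-cadherin) from 1068 ± 39.6 to 8247 ± 106. CDH1 was 1423 ± 144 in untreated neural cells and lower in vehicle.

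All 5 membrane-anchored serine proteases measured rose, each at least 2-fold, with a median of 4.13. ST14 (matriptase) rose from 671 ± 82.1 to 9371 ± 425 (3.81 ± 0.09), its partner PRSS8 (prostasin) from 294 ± 44.1 to 5128 ± 383 and TMPRSS2 from 9.07 ± 6.58 to 602 ± 34.5. The dual oxidases DUOX1 and DUOX2, which make hydrogen peroxide at epithelial surfaces, rose from 23.7 ± 9.55 to 747 ± 50.9 and from 4.54 ± 0.577 to 142 ± 18.3, and the maturation factor DUOXA1 from 2.91 ± 1.67 to 469 ± 17.3.

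Of 18 histone genes 10 rose and 7 fell, 9 and 5 at least 2-fold, against 16.4% and 14.4% of all genes. The replacement histones H2AZ1 and H2AX fell from 9066 ± 938 to 2849 ± 60.0 and from 2379.9 ± 272 to 627 ± 40.8, and the clustered genes H2BC4 and H2BC5 rose from 17.8 ± 9.93 to 510.1 ± 58.1 and from 39.5 ± 14.1 to 296 ± 23.6. The library was made from polyadenylated RNA, and most clustered histone transcripts lack a poly(A) tail, so these values cover the polyadenylated part only.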
